A study of Mus musculus with 6 samples.

Results

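The genes described here are the autophagy machinery of primary mouse bone marrow-derived macrophages (BMDM), 43 of the 14005 genes in the deposited expression table. They were taken by name: every gene whose symbol starts with Atg and a number, Map1lc3, Gabarap, Wipi or Wdfy, the kinases Ulk1 and Ulk2, and 12 further genes (Becn1, Pik3c3, Pik3r4, Uvrag, Ambra1, Rb1cc1, Nbr1, Optn, Calcoco1, Tax1bp1, Vmp1 and Nrbf2), with pseudogene names left out. No expression value was used in that choice, although results of these data were known when it was made. The comparison was of 3 libraries labelled Txn1 KO with 3 wild-type libraries, all of macrophages grown from bone marrow on a C57BL/6J background, with male and female material pooled in both groups. The genotype label of the Txn1 KO group names a Txn1 allele, Txn1tm1.1Ees/J, together with B6.129P2-Lyz2tm1(cre)lfo/J, a Cre recombinase placed in the Lyz2 gene and so driven in myeloid cells. The wild-type group carries neither by its label, so the effect of the Cre allele and of the altered Lyz2 gene cannot be told apart from that of the Txn1 allele. The same holds for any other difference between the wild type and the lines named in that genotype label. The labels give no age, and do not say whether each library is of another animal or culture, so that p-values cover only the spread among these libraries, which may be technical. Per the design text, the experiment asked how the loss of thioredoxin-1, a small redox protein, bears on transcripts of the NLRP1 inflammasome.

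Macroautophagy encloses cytoplasm in a double membrane, the autophagosome, which then fuses with the lysosome. The ULK kinase complex starts the process, and a class III lipid kinase complex marks the membrane with a phosphoinositide. ATG9 vesicles and ATG2 lipid-transfer proteins feed the growing membrane, and a ubiquitin-like conjugation system couples the ATG8 proteins (the LC3 and GABARAP families) to it. Cargo receptors tie ubiquitinated or damaged material to the ATG8 proteins. In macrophages the same proteins also serve the clearance of intracellular bacteria and the uptake pathway called LC3-associated phagocytosis.

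The deposited values are read counts divided by a size factor per library, called normalized counts below. The libraries held 22508616 to 31127228 reads in listed genes in the Txn1 KO group and 29716640 to 38726953 in wild type. Lyz2, the site of the Cre allele, had 4327, 3251 and 1775 normalized counts in the libraries labelled Txn1 KO and 361315, 363625 and 368284 in wild type (log2 change -6.96, SE 0.189, limma adjusted p = 1.94e-13), so that it followed the labels. Txn1 itself did not: it had 12695, 11963 and 12389 normalized counts in the libraries labelled Txn1 KO and 13176, 12155 and 12409 in wild type, with a log2 change of -0.03 (limma, SE 0.037, adjusted p = 0.686). These are sums over the whole gene, the deleted part is not named in the labels, and the genotype of each library is therefore taken from its label. Summed over 6 macrophage markers, listed under 7 identifiers, levels were 127316 to 128387 normalized counts in the libraries labelled Txn1 KO and 127042 to 129927 in wild type. Within that sum the markers moved both ways: Mertk (log2 change 0.64) and both identifiers of Itgam (0.48 and 1.68) were higher, Cd14 (-0.47) and Cd68 (-0.12) were lower, and Csf1r (0.05) and Adgre1 (-0.07) did not pass. Of 6 stromal markers, 4 were lower, with summed levels of 1147 to 1989 normalized counts in the libraries labelled Txn1 KO against 2313 to 2635 in wild type, and none of the 6 was at 0. Neutrophil markers (4 of 7 listed) summed to 231 to 267 normalized counts in the libraries labelled Txn1 KO and 258 to 263 in wild type, with 1 of them lower. Dendritic cell markers (4 of 5 listed) summed to 43.1 to 56.8 normalized counts in the libraries labelled Txn1 KO and 49.0 to 68.3 in wild type, and none of 5 lymphoid and 4 erythroid markers was listed. The part of any of these cells in the results was not tested, and in bulk RNA fewer cells of a type and less RNA per cell cannot be told apart. Liver transcripts (4 of 8 listed) stood at 795 and 866 summed normalized counts in Txn1 KO library 3 and wild-type library 1, against 13.2 to 26.8 in the other 4. Without those libraries limma called the same 12 autophagy genes, 8 higher and 4 lower.

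All 43 genes passed the filter on low values (a mean of at least 10 normalized counts), with means from 268 to 14278 normalized counts. By limma on log2(normalized count + 1), with p-values adjusted by the Benjamini-Hochberg method over all 13977 genes tested and a threshold of 0.05, 12 of the 43 differed between the groups (27.9%, against 21.5% of all genes tested). Of these, 8 were higher in the libraries labelled Txn1 KO (18.6%, against 11.5% of all genes) and 4 were lower (9.30%, against 9.97%). Higher were Wdfy1, Atg4c, Optn, Vmp1, Gabarapl1, Atg2a, Nbr1 and Tax1bp1, and lower were Atg9b, Wdfy4, Gabarap and Ulk2. Apart from Wdfy1, whose level was 2.08 times the wild-type level, the changes were modest: 1 of 43 genes (2.33%) reached a log2 change of 1 in either direction, against 2.97% of all genes. The median log2 change of the 43 genes was -0.03, against -0.00 over all genes, and the median absolute log2 change was 0.07, against 0.13. For 16 of the 43 genes (37.2%) the libraries of the groups did not overlap, against 36.2% of all genes. Those 16 were the 12 that passed the test and Ulk1, Becn1, Pik3c3 and Atg14. On the reads recovered from the values, edgeR's quasi-likelihood test called the same 12 genes (against 21.2% of all genes), and the authors' deposited table calls all of them but Ulk2 (against 19.2%).

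The 31 genes that did not pass lay between -0.09 and 0.11 in log2 change, 20 below 0 and 11 above. Their 95% intervals, taken gene by gene, all lay between 84.8% and 120% of the wild-type level. Within a group the libraries were close, with a median coefficient of variation over the 43 genes of 3.93% in the libraries labelled Txn1 KO and 2.74% in wild type. The 12 genes that passed lie on 8 chromosomes, with 4 of them (Gabarap, Nbr1, Ulk2 and Vmp1) on chromosome 11. The plot of log2 changes by role shows the size of each change, with Wdfy1 and Atg9b the furthest from 0.

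**Figure D1:**
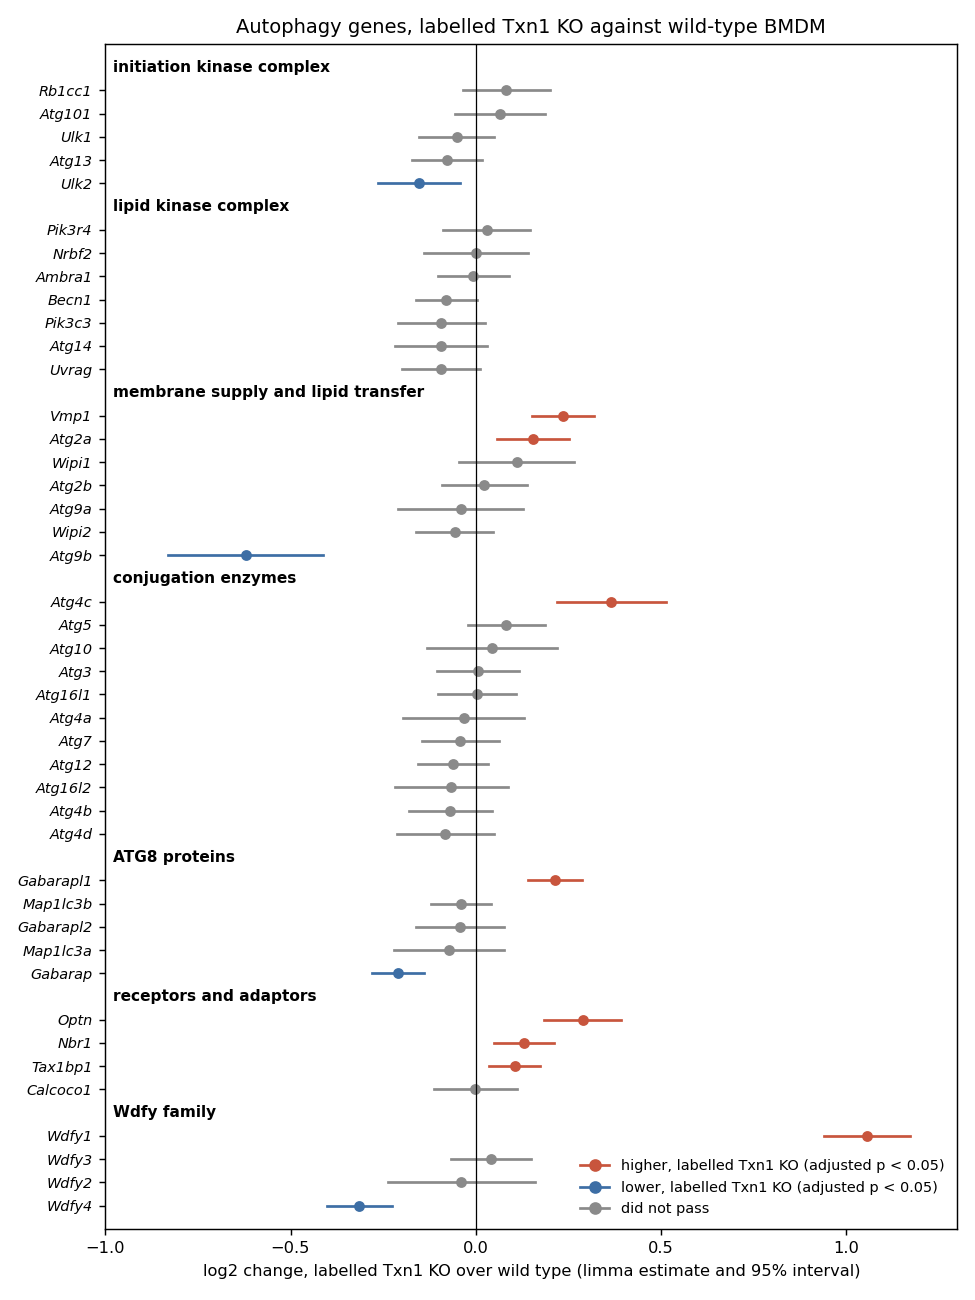
Log2 change of each of the 43 autophagy genes, libraries labelled Txn1 KO over wild type, grouped by role, with its 95% interval as a bar. Coloured points passed limma's adjusted p of 0.05 and grey points did not; Wdfy1 stands apart at 1.06 and Atg9b is the lowest at -0.62.

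Levels between genes can be compared only per length, and were therefore also expressed as normalized counts per kb of exon. The length was that of all annotated exons of a gene merged, used in these cells or not. Per kb, the median of the 43 genes was 239 in the libraries labelled Txn1 KO and 239.7 in wild type, against 122 and 121 over all genes tested. The highest was Gabarap, at 7180.4 per kb in the libraries labelled Txn1 KO and 8306 in wild type, followed by Gabarapl1 at 4102 and 3538, and the lowest was Wdfy2 at 34.5 and 35.6. The plot of levels by role shows the range within each role group.

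**Figure D2:**
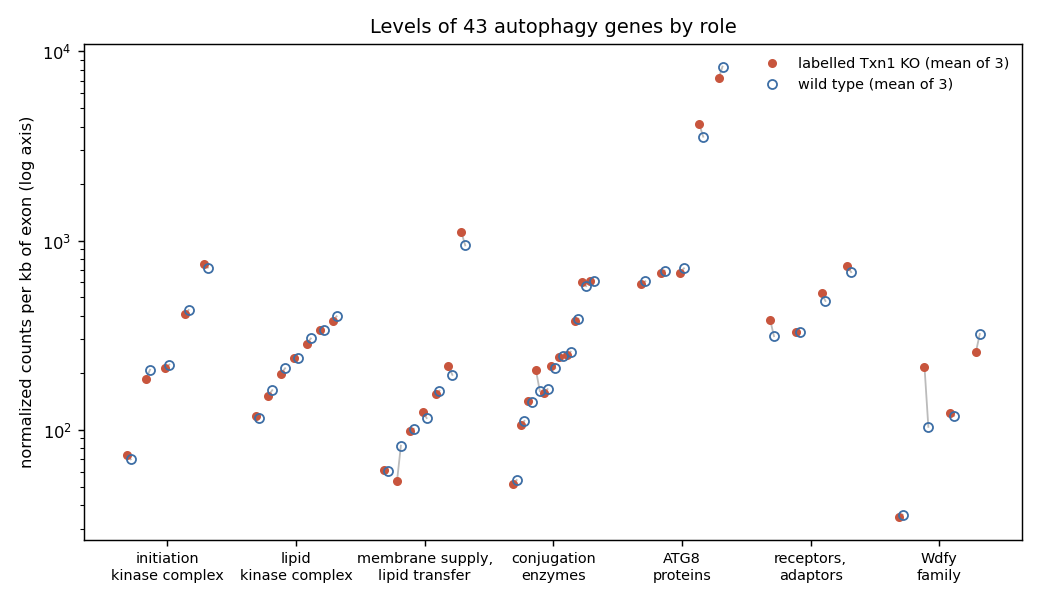
Mean level of each autophagy gene in normalized counts per kb of exon (log axis), in the libraries labelled Txn1 KO and in wild type (means of 3 libraries each), grouped by role. The ATG8 genes Gabarap and Gabarapl1 are the highest, at 7180.4 and 4102 per kb in the libraries labelled Txn1 KO, and Wdfy2 is the lowest.

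Of the 5 genes of the initiation complex, Ulk2 was lower and none was higher, with a median log2 change of -0.05. Ulk2, a kinase related to Ulk1 that phosphorylates other autophagy proteins (ENSMUSG00000004798, chr11:61775649-61855073, minus strand, build GRCm38), had 1149, 1071 and 1125 normalized counts in the libraries labelled Txn1 KO, against 1194, 1236 and 1293 in wild type, with a log2 change of -0.15 (limma, SE 0.052, adjusted p = 0.0441). All libraries labelled Txn1 KO lay below all wild-type ones, but the nearest pair was close. The call of Ulk2 was the least stable of the 12 and was lost in 9 of 17 alternatives. It was lost on leaving out wild-type library 2 or 3 or any of the 3 libraries labelled Txn1 KO (adjusted p from 0.0529 to 0.197), and by the adjusted p of the authors' deposited table (0.0699). Atg13, the regulatory subunit that binds both ULK kinases, had the highest count of the group: 1727, 1842 and 1760.3 normalized counts in the libraries labelled Txn1 KO, against 1921, 1836 and 1869.8 in wild type, and the groups overlapped (log2 change -0.08, limma adjusted p = 0.243). Ulk1 (-0.05), the scaffold Rb1cc1, also known as FIP200 (0.08), and Atg101 (0.07), which stabilises ATG13, did not pass either.

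None of the 7 genes of the class III lipid kinase complexes passed the test, and their median log2 change was -0.08. Becn1, the scaffold Beclin 1, had the highest count: 2682, 2636 and 2654 normalized counts in the libraries labelled Txn1 KO, against 2742, 2809 and 2876 in wild type (log2 change -0.08, limma adjusted p = 0.167). The Becn1 libraries of the groups did not overlap, but by a margin that did not pass, and 43.9% of Becn1 exon bases are shared with Cntd1 on the opposite strand. The catalytic subunit Pik3c3 (-0.09), the autophagosome-directed subunit Atg14 (-0.09) and the endosome-directed subunit Uvrag (-0.09) had log2 changes of the same size. The pseudokinase subunit Pik3r4 (0.03), the accessory subunit Nrbf2 (0.00) and the regulator Ambra1 (-0.01) lay close to 0.

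Among the 7 genes that supply membrane, Vmp1 and Atg2a were higher and Atg9b was lower, with a median log2 change of 0.02. Atg9b (ENSMUSG00000038295, chr5:24384181-24392143, minus strand) encodes a lipid scramblase of ATG9 vesicles and showed the largest fall of the 43 genes. It had 201, 235 and 199 normalized counts in the libraries labelled Txn1 KO, against 336, 332 and 308 in wild type, with a log2 change of -0.62 (limma, SE 0.099, adjusted p = 1.83e-04). Every library labelled Txn1 KO lay well below every wild-type library. Its paralog Atg9a, the widely expressed form, did not pass (log2 change -0.04). Per kb of exon, Atg9b stood at 53.6 in the libraries labelled Txn1 KO and 82.4 in wild type, and Atg9a at 98.9 and 101. The ratio of Atg9b to Atg9a per kb was accordingly 0.474, 0.575 and 0.589 in the libraries labelled Txn1 KO, against 0.831, 0.825 and 0.786 in wild type, a measure chosen after the values were seen and not tested. Atg9b shares 294 exon bases (7.45%) with Nos3 on the opposite strand, and strand use in counting was not given. Nos3 had 45.2, 134.0 and 53.8 normalized counts in the libraries labelled Txn1 KO, against 54.0, 29.5 and 58.7 in wild type. It did not pass (limma adjusted p = 0.249): the groups overlapped, and Txn1 KO library 2 stood apart from the rest. Atg9a, in turn, shares 1832 exon bases (31.8%) with Gm29253 on the same strand, and reads in the shared bases, which enter its level and the ratio above, cannot be told apart.

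Vmp1 (ENSMUSG00000018171, chr11:86583865-86683836, minus strand) encodes a scramblase of the endoplasmic reticulum at sites of autophagosome formation. It had 4323, 4117 and 4409 normalized counts in the libraries labelled Txn1 KO, against 3661, 3524 and 3734 in wild type, and the groups were well separated, with a log2 change of 0.23 (limma, SE 0.039, adjusted p = 2.97e-04). The gene also holds Mir21a, whose 92 bases lie within Vmp1 exons. Atg2a, a bridge-like lipid-transfer protein (ENSMUSG00000024773, chr19:6241668-6262335, plus strand), was higher by less: it had 1681, 1644 and 1685 normalized counts in the libraries labelled Txn1 KO, against 1517, 1443 and 1540.3 in wild type, with a log2 change of 0.16 (limma, SE 0.046, adjusted p = 0.0215). All 3 libraries labelled Txn1 KO were above all wild-type libraries, but the call was lost without wild-type library 2 (adjusted p = 0.095) or without Txn1 KO library 1 (0.0668). Its paralog Atg2b (0.02) did not pass, nor did Wipi1 (0.11) and Wipi2 (-0.06), which read the phosphoinositide mark.

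Promoter sequence was examined for 3 short motifs in the 250 bases upstream of each annotated start, from RefSeq windows of build GRCm38.p6. Of the 43 genes, 35 had a window, Wdfy1 not among them. The E-box CACGTG, bound by TFEB and its relatives, master regulators of lysosomal genes, was in 4 of the 35 promoters (Atg3, Atg5, Atg7 and Nrbf2), against 6.86% of all 27025 genes, and in none of the 11 with a window that passed the test. TGACNNNGC, the core bound by the oxidative stress factor NRF2, was in 6 of 35 (17.1%), against 11.5% of all genes. Its 6 genes were Vmp1 and Tax1bp1, which were higher, Ulk2 and Wdfy4, which were lower, and Atg13 and Nrbf2, which did not pass, so the motif stood in genes of both directions. TTTCNNTTTC, the core of the interferon-stimulated response element, was in none of the 35, against 3.46% of all genes. Both strands were searched, and matches of different motifs overlapped in 74 of 32851 windows. A match is a run of letters and not a shown binding site. Printed below are the Vmp1 and Ulk2 promoters, which hold the NRF2 core in a gene of each direction, and that of Atg9b, the gene with the largest fall, which holds none of the motifs. They lie on the minus strand at chr11:86683837-86684086 (Vmp1), chr11:61855093-61855342 (Ulk2) and chr5:24392144-24392393 (Atg9b), are written 5′ to 3′ on the gene's strand, and have the motif match in capitals. The Vmp1 match reads in reverse complement, and the window shown is 1 of 3 for Vmp1, each of which holds a match. The first transcribed bases after the window were found in a GENCODE transcript of the gene for Vmp1 and Atg9b but not for Ulk2. The Ulk2 start is therefore less certain, and its match begins 17 bases upstream of that start.
Vmp1: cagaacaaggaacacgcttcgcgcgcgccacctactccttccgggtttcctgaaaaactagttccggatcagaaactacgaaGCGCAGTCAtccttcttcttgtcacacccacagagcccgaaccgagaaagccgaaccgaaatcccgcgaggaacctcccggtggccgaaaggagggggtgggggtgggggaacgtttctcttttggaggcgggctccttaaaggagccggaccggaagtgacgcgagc
Ulk2: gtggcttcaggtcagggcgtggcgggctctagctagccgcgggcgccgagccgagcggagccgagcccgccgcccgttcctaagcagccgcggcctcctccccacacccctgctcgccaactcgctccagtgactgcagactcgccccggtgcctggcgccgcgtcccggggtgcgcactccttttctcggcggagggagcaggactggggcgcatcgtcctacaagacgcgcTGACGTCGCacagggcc
Atg9b: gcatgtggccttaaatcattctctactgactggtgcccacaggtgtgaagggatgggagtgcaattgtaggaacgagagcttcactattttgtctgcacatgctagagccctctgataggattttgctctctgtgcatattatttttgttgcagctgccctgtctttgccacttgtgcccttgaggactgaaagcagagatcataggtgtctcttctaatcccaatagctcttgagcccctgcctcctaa

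Of the 11 conjugation genes, Atg4c was higher and none was lower, with a median log2 change of -0.03. The ATG4 proteins are cysteine proteases that trim ATG8 proteins before conjugation and release them from membranes afterwards. Atg4c (ENSMUSG00000028550, chr4:99193934-99259787, plus strand) had 702, 675 and 693 normalized counts in the libraries labelled Txn1 KO, against 500.3, 525 and 583 in wild type. Every library labelled Txn1 KO lay above every wild-type one, although wild-type library 3 was nearer to them than the other wild-type libraries, with a log2 change of 0.37 (limma, SE 0.069, adjusted p = 8.65e-04). Its relatives Atg4a (-0.03), Atg4b (-0.07) and Atg4d (-0.08) did not pass. Atg7, the activating enzyme of both conjugation arms and the highest by count, had 2717, 2749 and 2393 normalized counts in the libraries labelled Txn1 KO, against 2679, 2685 and 2714 in wild type, and the groups overlapped (log2 change -0.04, limma adjusted p = 0.61). The conjugating enzymes Atg3 (0.01) and Atg10 (0.04) did not pass. The same held for the ubiquitin-like Atg12 (-0.06) and its partners Atg5 (0.08), Atg16l1 (0.00) and Atg16l2 (-0.07).

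The 5 ATG8 genes held a pair of opposite changes: Gabarapl1 was higher and Gabarap was lower, and the LC3 genes did not pass. ATG8 proteins are small ubiquitin-like proteins that become attached to the lipid of the autophagosome. Gabarap (ENSMUSG00000018567, chr11:69991143-69994951, plus strand) had 13242, 13603 and 12877 normalized counts in the libraries labelled Txn1 KO, against 15646, 15255 and 15045 in wild type, with a log2 change of -0.21 (limma, SE 0.033, adjusted p = 1.56e-04). Gabarapl1 (ENSMUSG00000030161, chr6:129533160-129542346, plus strand) had 8532, 8167 and 8076 normalized counts in the libraries labelled Txn1 KO, against 7202, 7225 and 6938 in wild type, with a log2 change of 0.21 (limma, SE 0.035, adjusted p = 2.32e-04). For both genes the libraries of the groups were separate, in opposite directions: the level in the libraries labelled Txn1 KO was 0.865 times the wild-type level for Gabarap and 1.16 times for Gabarapl1. Map1lc3a (-0.07), Map1lc3b (-0.04), which encodes the LC3B used as an autophagosome marker, and Gabarapl2 (-0.04) did not pass. Gabarapl1 shares 570 exon bases (28.3%) with 1700101I11Rik on the opposite strand, a transcript with means of 26.4 normalized counts in the libraries labelled Txn1 KO and 20.1 in wild type.

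Per kb of exon, Gabarap made up 54.3% ± 0.73 of the summed ATG8 level in the libraries labelled Txn1 KO and 59.9% ± 0.18 in wild type (SD, n = 3 each). Gabarapl1 made up 31.0% ± 0.69 in the libraries labelled Txn1 KO and 25.5% ± 0.33 in wild type. Each of the other 3 genes held at most 5.14% in either group. These shares depend on the merged exon lengths: 7517 bases for Map1lc3b, against 1844 for Gabarap and 2013 for Gabarapl1. By count Map1lc3b had means of 4452 normalized counts in the libraries labelled Txn1 KO and 4577 in wild type, above Map1lc3a and Gabarapl2. The ratio of Gabarapl1 to Gabarap per kb was 0.590, 0.550 and 0.575 in the libraries labelled Txn1 KO, against 0.422, 0.434 and 0.422 in wild type, so that the libraries of the groups were apart. The summed ATG8 level was 13406, 13407 and 12867 per kb in the libraries labelled Txn1 KO, against 14129.6, 13851 and 13594 in wild type, with a narrow gap between the groups. Shares, ratio and sum were chosen after the values of the genes were seen and were not tested.

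**Figure D3:**
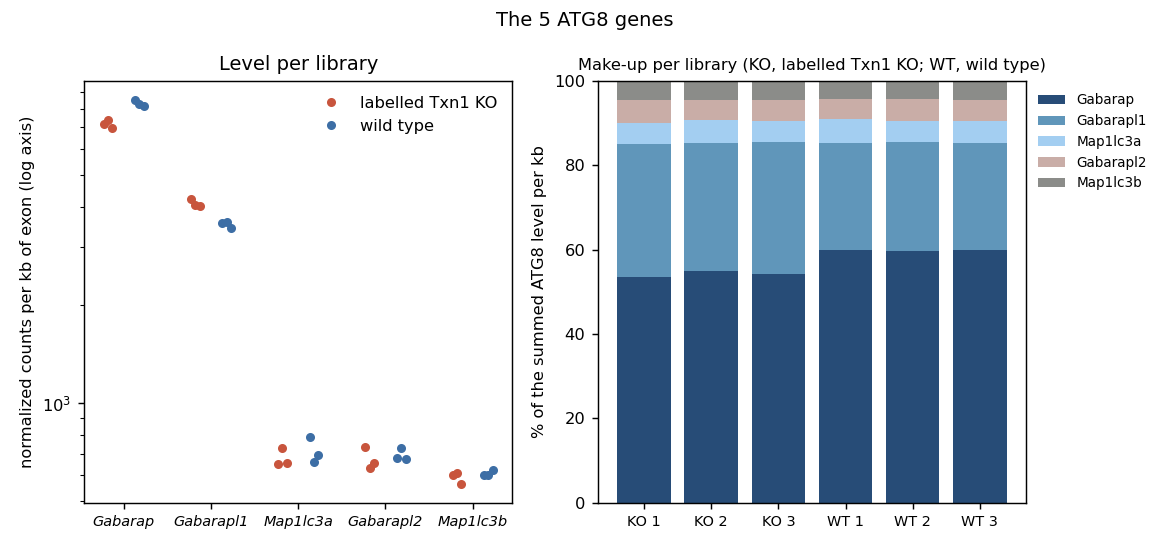
Levels of the 5 ATG8 genes per library in normalized counts per kb of exon (left, log axis; points are libraries) and each gene's share of the summed level per library (right, percent). In the libraries labelled Txn1 KO the Gabarap share is lower (54.3%, against 59.9% in wild type) and the Gabarapl1 share higher (31.0%, against 25.5% in wild type).

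Of the 4 cargo receptors, 3 were higher (Optn, Nbr1 and Tax1bp1) and none was lower, with a median log2 change of 0.12. Over all genes tested 11.5% were higher and 9.97% lower, and a group of 4 genes is small for such a comparison. The 16 further receptors and regulators described below had 3 higher and 1 lower, with a median of 0.01. Optn (ENSMUSG00000026672, chr2:5020642-5064051, minus strand) encodes optineurin, a ubiquitin-binding receptor for damaged mitochondria and cytosolic bacteria. It had 1486, 1435 and 1375 normalized counts in the libraries labelled Txn1 KO, against 1147, 1198 and 1171 in wild type, with every value of the Txn1 KO group above the wild-type ones, and with a log2 change of 0.29 (limma, SE 0.049, adjusted p = 3.48e-04). Nbr1, a receptor for ubiquitinated aggregates and peroxisomes (ENSMUSG00000017119, chr11:101552149-101581951, plus strand), had 3549.6, 3738 and 3531 normalized counts in the libraries labelled Txn1 KO, against 3286, 3247 and 3349.7 in wild type, with a log2 change of 0.13 (limma, SE 0.038, adjusted p = 0.0217). Tax1bp1, a receptor for aggregates and bacteria that also restrains inflammatory signalling (ENSMUSG00000004535, chr6:52713729-52766780, plus strand), had 7385, 7289 and 7265 normalized counts in the libraries labelled Txn1 KO, against 6765, 6931 and 6711 in wild type, with a log2 change of 0.10 (limma, SE 0.033, adjusted p = 0.0296). For each of the 3 genes the groups did not overlap, but the Nbr1 and Tax1bp1 changes were small and their calls depended on single libraries. The Nbr1 call was lost without wild-type library 2 (adjusted p = 0.072) or Txn1 KO library 2 (0.111). That of Tax1bp1 was lost without wild-type library 1 or 3 or Txn1 KO library 1 or 2 (adjusted p from 0.0629 to 0.127). Calcoco1, described in human cells as a receptor for the endoplasmic reticulum and Golgi, did not pass (log2 change -0.00).

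The Wdfy genes are named for WD repeats and for the FYVE domain, a module that binds the phosphoinositide made by the class III lipid kinase, and only some of them have a known part in autophagy. Of the 4, Wdfy1 was higher and Wdfy4 was lower. Wdfy1, an endosomal protein reported to assist Toll-like receptor signalling (ENSMUSG00000073643, chr1:79702262-79776143, minus strand), showed the largest change of the 43 genes. It had 1320.4, 1455 and 1424 normalized counts in the libraries labelled Txn1 KO, against 659, 684 and 673 in wild type. Every library labelled Txn1 KO held a far larger count than any wild-type library, with a log2 change of 1.06 (limma, SE 0.055, adjusted p = 2.87e-10) and a 95% interval from 0.94 to 1.17. Wdfy4, known in mice for the cross-presentation of antigen by dendritic cells (ENSMUSG00000051506, chr14:32959547-33185508, minus strand), had 2736, 2828 and 2604 normalized counts in the libraries labelled Txn1 KO, against 3303, 3383 and 3469.6 in wild type. These groups did not overlap either, with a log2 change of -0.31 (limma, SE 0.042, adjusted p = 2.61e-05). Dendritic cell markers, with the summed levels given above, did not pass in any of the 4 listed genes, and their part in the Wdfy4 result was not tested. Per kb of exon, Wdfy1 stood at 216 in the libraries labelled Txn1 KO and 104 in wild type, and Wdfy4 at 258 and 321, so the order of levels between these genes held in both groups. Wdfy3, also known as ALFY, an adaptor for aggregate clearance (0.04), and Wdfy2, an endosomal protein (-0.04), did not pass. Without the 4 Wdfy genes, a choice made after seeing the data, 10 of 39 genes passed (25.6%, against 21.5% of all genes tested). Of these, 7 were higher (17.9%, against 11.5%) and 3 lower (7.69%, against 9.97%).

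**Figure D4:**
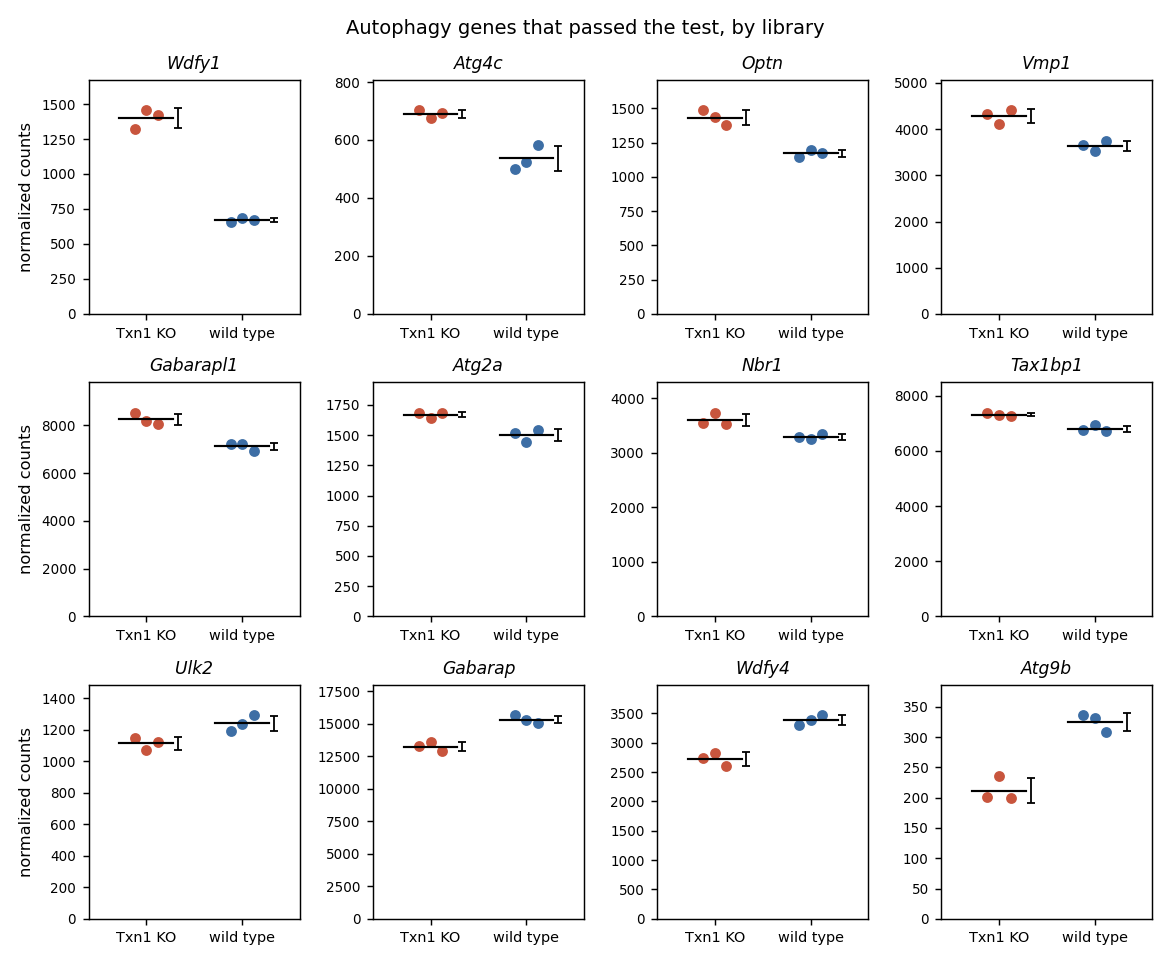
Normalized counts per library of the 12 autophagy genes that passed limma's adjusted p of 0.05, the libraries labelled Txn1 KO to the left of wild type; points are libraries, lines are means of 3 and bars are ± 1 SD. In each of the 12 panels the points of the groups do not overlap, and the gap relative to the wild-type level is widest for Wdfy1.

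None of the 8 nearest tested genes around Wdfy1 on chromosome 1 reached the size of its change. Of the 8, 2 were higher and none was lower, against 11.5% higher and 9.97% lower of all genes tested. Ap1s3 and Mrpl44, which flank Wdfy1, had log2 changes of 0.24 (limma adjusted p = 0.14) and -0.07 (0.459). The 2 that passed were Dock10, at 0.32 (limma adjusted p = 6.04e-06), and Acsl3, at 0.19 (0.0155). Mrpl44 shares 126 exon bases with Wdfy1 on the opposite strand, which is 1.94% of the Wdfy1 exons.

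Other genes of the pathway were followed in 3 lists: 34 nutrient and energy regulators of autophagy, 18 further cargo receptors and their regulators, and 25 genes of membrane source and fusion, of which 34, 16 and 24 were listed in the table. Of the 34 regulators, 6 were higher and 4 lower, with a median log2 change of 0.01. Mitf, of the same transcription factor family as TFEB, had 2447, 2543 and 2511 normalized counts in the libraries labelled Txn1 KO, against 2170.3, 2167 and 2112 in wild type (log2 change 0.22, SE 0.04, limma adjusted p = 7.05e-04). Prkaa1, a catalytic subunit of the energy sensor AMPK, had 1740.0, 1795 and 1606 normalized counts in the libraries labelled Txn1 KO, against 1395, 1453 and 1539 in wild type (log2 change 0.23, SE 0.053, limma adjusted p = 0.00482). Both were higher without overlap, while Lamtor1 and Rptor, an anchor and a core subunit of the mTORC1 pathway, were lower. AMPK and mTORC1 genes of the list moved both ways. Prkag1, another AMPK subunit, was lower (log2 change -0.17, limma adjusted p = 0.0463) and Lamtor3 was higher (0.12, 0.031). Lamtor5 was lower (-0.14, 0.0343), and Mtor (-0.06) did not pass. The remaining higher genes of the list were Ddit4 (log2 change 0.44, limma adjusted p = 0.0205), Sesn2 (0.24, 0.0253) and Foxo3 (0.11, 0.045). Prkag1, Lamtor3, Lamtor5, Mtor, Ddit4, Sesn2 and Foxo3 were named after their values were seen. Without wild-type library 2, only Mitf and Prkaa1 of the list were higher and only Lamtor1 was lower. The calls of Prkag1, Lamtor3, Lamtor5, Ddit4, Sesn2 and Foxo3 were thus lost in that fit. Lamtor1 had 4710.0, 4617 and 4504 normalized counts in the libraries labelled Txn1 KO, against 5257, 5165 and 5370.4 in wild type (log2 change -0.19, SE 0.036, limma adjusted p = 7.52e-04). Rptor had 1703, 1712 and 1467 normalized counts in the libraries labelled Txn1 KO, against 1813, 1932 and 1882 in wild type (log2 change -0.21, SE 0.057, limma adjusted p = 0.0138), without overlap, a call lost without Txn1 KO library 3 or wild-type library 2 or 3 (adjusted p from 0.0535 to 0.0637). Named after their values were seen, the lysosomal regulators Tfeb (0.11, limma adjusted p = 0.11) and Tfe3 (0.10, 0.0552) did not pass with all libraries. Tfeb passed without wild-type library 1 (adjusted p = 0.0177) or without both libraries holding liver transcripts (0.00783), and Tfe3 without Txn1 KO library 2 (0.0443).

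Of the 16 further receptors and regulators, 3 were higher (Bnip3l, Tbk1 and Sqstm1) and Pink1 was lower, with a median log2 change of 0.01. Bnip3l, a mitophagy receptor also known as NIX, had 5708, 5609 and 5441 normalized counts in the libraries labelled Txn1 KO, against 4875, 5203 and 4926 in wild type (log2 change 0.16, SE 0.037, limma adjusted p = 0.00489). Sqstm1, which encodes the receptor p62, had 32155, 30999.5 and 29779.9 normalized counts in the libraries labelled Txn1 KO, against 28371, 28685 and 28942 in wild type (log2 change 0.11, SE 0.034, limma adjusted p = 0.0248). Both genes were higher in every library labelled Txn1 KO than in any wild-type library, but the Sqstm1 call was lost without any of wild-type libraries 1, 2 and 3 or Txn1 KO libraries 1 and 2 (adjusted p from 0.0535 to 0.149). Tbk1, a kinase that acts on optineurin, had 3417, 3607 and 3717 normalized counts in the libraries labelled Txn1 KO, against 3151, 3186 and 3469 in wild type (log2 change 0.13, SE 0.045, limma adjusted p = 0.0463), with overlapping groups. Its call was lost without wild-type library 1 or 2 or Txn1 KO library 2 or 3 (adjusted p from 0.123 to 0.155), and without both libraries holding liver transcripts (0.246). Pink1, a kinase that marks damaged mitochondria, had 3187, 3115 and 3090.0 normalized counts in the libraries labelled Txn1 KO, against 3488, 3352 and 3431 in wild type (log2 change -0.13, SE 0.037, limma adjusted p = 0.02). These groups did not overlap, but the call was lost without wild-type library 1 or 3 or Txn1 KO library 2 (adjusted p from 0.0613 to 0.0734), and without both libraries holding liver transcripts (0.0751).

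Of the 24 membrane source and fusion genes, 5 were lower (20.8%, against 9.97% of all genes tested) and none was higher (against 11.5%). Their median log2 change was -0.03. Ei24, a protein of the endoplasmic reticulum needed for autophagic degradation, had 1801, 1917 and 1839.7 normalized counts in the libraries labelled Txn1 KO, against 2185, 2302 and 2192 in wild type (log2 change -0.26, SE 0.044, limma adjusted p = 2.62e-04). Vamp8, a lysosomal SNARE that fuses with autophagosomes, had 5416, 5251 and 5472 normalized counts in the libraries labelled Txn1 KO, against 6086, 5887 and 5875 in wild type (log2 change -0.15, SE 0.035, limma adjusted p = 0.00591). For both, no library labelled Txn1 KO reached the lowest wild-type value. Stx7, an endosomal SNARE, had 5495, 5339 and 5168 normalized counts in the libraries labelled Txn1 KO, against 5894, 5791 and 6029 in wild type (log2 change -0.15, SE 0.036, limma adjusted p = 0.00695), a call lost without wild-type library 3 (adjusted p = 0.0508). Vps33a, a subunit of the tethering complex HOPS, had 2215, 2151 and 2173 normalized counts in the libraries labelled Txn1 KO, against 2452, 2476 and 2375 in wild type (log2 change -0.16, SE 0.04, limma adjusted p = 0.00888). These groups, and those of Stx7, did not overlap. The fifth was the SNARE Ykt6 (log2 change -0.15, limma adjusted p = 0.0159), named after its value was seen, whose call was lost without wild-type library 3 (0.106) or Txn1 KO library 3 (0.0554), and without both libraries holding liver transcripts (0.0648). The genes that passed were 10 of 34 regulators (29.4%), 4 of 16 further receptors and 5 of 24 fusion genes (20.8%), against 21.5% of all genes tested.

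**Figure D5:**
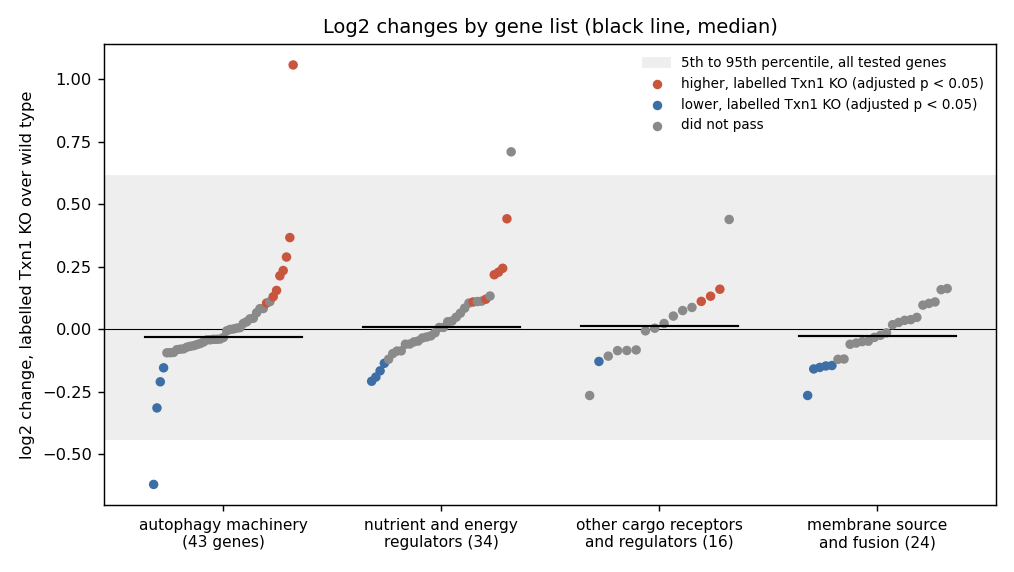
Log2 changes, libraries labelled Txn1 KO over wild type, of the 43 autophagy genes and the 3 other pathway lists; each point is a gene, coloured where it passed limma's adjusted p of 0.05, black lines are medians and the grey band holds the 5th to 95th percentile of all genes tested. The medians of the 4 lists lie between -0.03 and 0.01.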

How the data were processed

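Per the labels' protocols, polyA-selected RNA with ERCC spike-ins was made into NEBNext Ultra II libraries, 3 labelled Txn1 KO and 3 wild type. The submitters' processing notes name bcl2fastq 2.20, Trimmomatic 0.36, STAR 2.5.2b, DESeq2 and build GRCm38 (mm10). Not given in the sources used here are the tool that counted reads, whether it used strand, the annotation and the DESeq2 version. The per-library signal in the deposited table is a read count that the authors divided by 1 size factor per library: 100% of values were whole multiples of 1 read at a tolerance of 0.01 reads. The log2 fold change, p-value and adjusted p-value deposited beside it are the authors' own. Columns named BMDM with a number were read as wild type, the only other group. All column names also hold "Phi", which the labels do not explain.

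With normalized values, the test was limma 3.58.1 (R 4.3.3; lmFit and eBayes with trend) on log2(value + 1) of genes with a mean of at least 10, two-sided, over 13977 genes (28 left out). Fold changes are on that scale, and understate those of low genes. 1 read was worth 0.777 to 1.35 normalized counts, so that 3 reads, the floor, came to 2.33 to 4.04, which covers counting error only. No pair of libraries within a group was alike to within sampling noise (chi-square over degrees of freedom from 6.08 to 29.0). Alternatives were another pseudocount, filter, threshold or scaling, each library left out, a replicate block, edgeR 4.0.16 and DESeq2 1.42.0 on the recovered reads, and the authors' statistics. The fits were tested on simulated data. The changes placed in those data were larger than those of all members that passed except Wdfy1 and Atg9b. Positions and exon lengths come from GENCODE M21 (GRCm38), in which all 43 genes matched, and promoters from RefSeq.

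The members, lists and tests were chosen with earlier results of these data known. Named with values per library were all members that passed, the highest member of each of 7 roles by count, and up to 4 passing genes with the smallest p in each other list.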

Additional observations from a re-analysis of the deposited data

How the results depend on the processing

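Of the 12 autophagy genes that passed, 8 (Wdfy1, Wdfy4, Gabarap, Gabarapl1, Atg9b, Vmp1, Optn and Atg4c) passed in all 17 alternatives at the 0.05 threshold, and no autophagy gene that had not passed did so in any of them. Ulk2, Tax1bp1, Atg2a and Nbr1 lost the call as described above, Ulk2 also on rescaling to a common total (adjusted p = 0.0551) and by DESeq2 (0.0682). By edgeR the call of Tbk1 was lost (0.0555). Tfe3 passed with a filter at a mean of 50 (0.0463) and on a common total (0.0422). On the recovered reads edgeR called 2969 genes, the same 12 members among them, and DESeq2 called 2706 genes with 11 of the 12. The authors' deposited table calls 2691 genes (19.2%) with 11 of the 12. Same-numbered libraries did not deviate together (correlations -0.19, 0.01 and -0.25). A replicate block left 2675 genes and 10 members (7 higher, 3 lower), against 3001 genes and 12 members without it. With the block 4 regulators were higher and 2 lower, against 6 and 4 without it. The calls that the block ended included those of Ulk2 (adjusted p = 0.0696), Tax1bp1 (0.0644) and Sqstm1 (0.0558), and those of the lower regulators Prkag1 and Lamtor5.

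On leaving out 1 library, 6 to 8 members were higher and 3 to 4 lower, with a median log2 change of -0.030 to -0.0041. Over all genes 1196 to 1513 were higher and 891 to 1303 lower, the lowest without wild-type library 3. In the same fits 2 to 5 regulators were higher and 1 to 4 lower, 1 to 2 further receptors higher and 0 to 1 lower, and 3 to 5 fusion genes lower. Without the libraries holding liver transcripts 0 further receptors were lower, and the member median was -0.011. At an adjusted p under 0.01, 5 members were higher and 3 lower, 1024 genes higher and 809 lower, 2 regulators higher and 1 lower, and 1 further receptor higher and 0 lower. Under 0.1, 2 further receptors were lower and 1 fusion gene was higher.

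The sign of some small changes that did not pass turned. Leaving out 1 library, the log2 change ranged from -0.051 to 0.0075 for Txn1, -0.026 to 0.014 for Ambra1, -0.0020 to 0.094 for Atg10, -0.031 to 0.037 for Atg16l1, -0.043 to 0.066 for Atg3, -0.13 to 0.028 for Atg4a and -0.078 to 0.022 for Atg7. It ranged from -0.10 to 0.059 for Atg9a, -0.064 to 0.039 for Calcoco1, -0.11 to 0.00083 for Gabarapl2, -0.045 to 0.046 for Nrbf2, -0.016 to 0.081 for Pik3r4, -0.095 to 0.052 for Wdfy2 and -0.0020 to 0.082 for Wdfy3. Without the libraries holding liver transcripts it was -0.011 for Nrbf2, 0.069 for Atg9a, 0.044 for Atg4a, 0.018 for Atg7, -0.016 for Atg16l1, 0.025 for Map1lc3a, 0.026 for Calcoco1, -0.033 for Wdfy3 and 0.0050 for Txn1. On a common total it was 8.0e-05 for Ambra1 and 0.0056 for Calcoco1, and with TMM factors -0.00047 for Nrbf2. The cause of these changes was not tested.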
